A study of Mus musculus with 2 samples.

Results

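The cells described here are Ly6c2 Ccr2 monocytes of 4T1 mammary tumours, 726 of the 21664 cells kept from a pair of single-cell RNA sequencing libraries. They were chosen by their own transcripts. A cell needed at least 3 unique molecular identifiers (UMIs) of Ly6c2, Ccr2 and Plac8 together, from at least 2 of these 3 genes, and at least 1 UMI of Csf1r. C1qa, C1qb and C1qc together had to stay under 5 per 10000 UMIs and S100a8 with S100a9 under 2% of UMIs, and no UMI of Cd3d, Cd3e, Cd3g or Flt3 was allowed. Of the 726 monocytes, 388 came from the tumour library of mice given beta-elemene, a sesquiterpene found in plants, at 30 mg/kg per day by injection into the abdomen for 18 days. The other 338 came from the library of mice given the same volume of normal saline (vehicle). All mice carried tumours grown from 4T1 cells, a mouse line used as a model of triple-negative breast cancer, placed with Matrigel in the mammary fat pad. The mouse strain, age and number of mice behind each library are not given in the sources used here. With 1 library per group there is no replicate check and no test. Every interval below is a 95% interval that covers counting error only. Intervals are exact, except those of differences between shares, which are approximate.

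Ly6C-high CCR2 monocytes are made in the bone marrow, leave it through the chemokine receptor CCR2 and enter inflamed tissue and tumours. There they can mature into macrophages, marked by F4/80, the mannose receptor and complement C1q, or into antigen-presenting cells that carry MHC class II. They also respond strongly to interferons, which switch on antiviral genes and MHC class I antigen processing.

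The monocytes made up 3.57% of kept beta-elemene cells (388 of 10861, 3.23 to 3.94) and 3.13% of kept vehicle cells (338 of 10803, 2.81 to 3.47). The difference was 0.444 percentage points, and its interval (-0.036 to 0.924) included 0. As a share of cells with Csf1r, the receptor for the growth factor that keeps macrophages alive, and without Cd3 UMIs, they made up 10.2% in beta-elemene and 8.68% in vehicle, a difference of 1.504 points (0.198 to 2.81). Cells near the limits of the rule were counted. Exactly 3 UMIs of the 3 genes were found in 3.61% of beta-elemene and 5.33% of vehicle monocytes. Cells that met every other limit with exactly 2 UMIs made up 0.110% and 0.102% of kept cells in beta-elemene and vehicle. Those with 5 to 10 C1q UMIs per 10000 made up 0.203% and 0.2499%, which is 22 and 27 cells. Just inside that limit, 10.8% of beta-elemene and 10.9% of vehicle monocytes had 2.5 to 5 C1q UMIs per 10000. The libraries held 157282740 UMIs (beta-elemene) and 168750895 UMIs (vehicle). A monocyte had a median of 7672.5 UMIs in beta-elemene and 8147.5 in vehicle. The libraries shared 37 barcodes, and 0 of these were monocytes in both.

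The genes of the rule are given as a description, since they chose the cells. Levels are CPM, the UMIs of a gene per 1000000 UMIs of the summed cells. Plac8, a cysteine-rich protein gene of myeloid and lymphoid cells, stood at 1272 CPM in beta-elemene and 715 CPM in vehicle monocytes. Ly6c2, the gene of the Ly6C surface antigen, stood at 215 CPM in beta-elemene and 129 CPM in vehicle. Ccr2 stood at 474 and 490 CPM in beta-elemene and vehicle. All 3 genes were detected together in 43.8% of beta-elemene monocytes (38.8 to 48.9) and 29.0% of vehicle monocytes (24.2 to 34.1). The combination of Ccr2 and Plac8 without a Ly6c2 UMI was found in 49.5% of beta-elemene and 65.1% of vehicle monocytes. The vehicle monocytes thus more often met the rule without Ly6c2. Ly6c2 and Ly6c1 are near-identical neighbours on chromosome 15 (mm10), so how reads divide between them is uncertain.

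Genes that the rule did not use fitted the label in part. Ms4a4c, a membrane protein gene of Ly6C-high monocytes, stood at 322 CPM in beta-elemene and 243 CPM in vehicle monocytes, against 82.9 and 61.1 CPM in the macrophages of the same libraries. After each cell was thinned to 2000 UMIs, it was seen in 43.0% of beta-elemene and 38.2% of vehicle monocytes, against 4.24% and 2.11% of T cells. Macrophages were defined by the same limits on Csf1r, Cd3, Flt3 and S100a8 with S100a9 and at least 5 C1q UMIs per 10000, 2625 in beta-elemene and 2578 in vehicle. Vcan, the proteoglycan versican, stood at 232 and 228 CPM in beta-elemene and vehicle monocytes, against 28.3 and 29.1 CPM in macrophages. The T cell group also had 296 and 255 CPM. It held 8 fibroblast markers at 17778 and 21575 CPM as well, against 2370 and 1984 CPM in all monocytes. Stromal RNA was not separated from it, so its values here and below are no clean measure of background. Chil3, which encodes the chitinase-like protein Ym1, stood at 40.9 CPM in beta-elemene and 32.5 CPM in vehicle monocytes, against 3.29 and 4.31 CPM in macrophages. After the same thinning Chil3 was seen in 7.73% of beta-elemene and 6.57% of vehicle monocytes and in 0% of T cells in both libraries. Median depth before thinning was 6165 and 5757 UMIs in beta-elemene and vehicle T cells, and thinning left out 0 beta-elemene and 3 vehicle monocytes. Adgre1, which encodes F4/80, was seen in 22.2% of beta-elemene and 25.7% of vehicle monocytes before thinning, and in 5.41% and 8.36% after it, against 0.585% and 0.163% of thinned T cells.

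**Figure D1:**
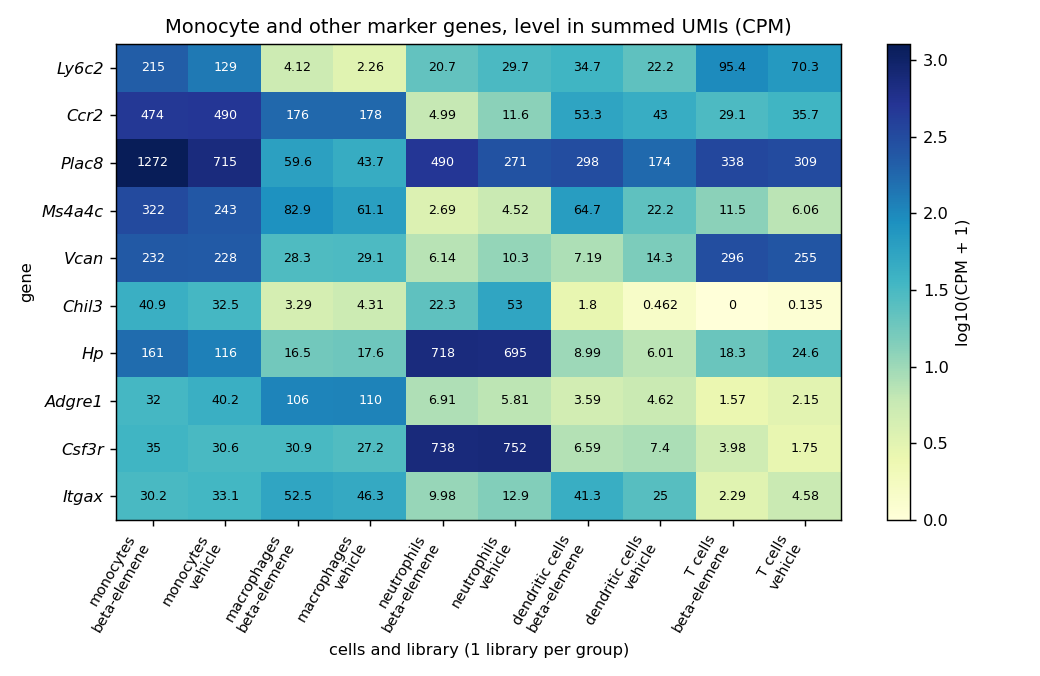
Levels of 10 marker genes in 5 groups of cells, with beta-elemene left of vehicle in each pair. Colour is log10(CPM + 1) and the number in each cell is the CPM of summed UMIs, 1 library per group. Vcan is near 230 CPM in monocytes of both libraries and under 30 CPM in macrophages. The T cell group also holds Vcan, along with fibroblast markers that the plot does not show.

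Against macrophages, 108 genes were at least 2-fold higher in monocytes of both libraries and 182 were at least 2-fold lower. This contrast follows from the rule and is a description. Of the 12 genes with the highest ratios 11 are given here, Dmkn, Ly6c1, Vcan, Chil3, Inhba, Plcb1, Hp, B3gnt5, Cxcl3, Ifi205 and Ltb4r1. Inhba, which encodes a subunit of the growth factor activin A, stood at 368 CPM in beta-elemene and 495 CPM in vehicle monocytes, against 50.6 and 68.6 CPM in macrophages. Hp, the haemoglobin-binding protein haptoglobin, stood at 161 and 116 CPM in beta-elemene and vehicle monocytes, against 16.5 and 17.6 CPM in macrophages. The 12 lowest were C6, Lyve1, Fcna, Hpgds, Ccl8, Npl, Cacna1a, Fcrls, Blnk, Cd163, Cadm1 and Ccl12. Several of these are genes of tissue-resident macrophages. Lyve1, a hyaluronan receptor, had 3 UMIs in all beta-elemene monocytes and 14 in all vehicle monocytes, against 61.0 and 101 CPM in macrophages.

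Some of the chosen cells also carried many transcripts of tumour or stromal cells. Lists of malignant, fibroblast, endothelial and pericyte markers reached 20 UMIs per 10000 in 22 beta-elemene cells (5.67%) and 27 vehicle cells (7.99%), called marker-high cells below. They had a median of 26458 UMIs in beta-elemene and 32406 UMIs in vehicle, and they held 19.1% and 26.4% of all monocyte UMIs. A doublet caller marked 11 of the 22 and 13 of the 27. The keratin gene Krt8 stood at 1037 and 886 CPM in the marker-high cells of beta-elemene and vehicle, and the collagen gene Col3a1 at 4625 and 2133 CPM. In the remaining 366 beta-elemene and 311 vehicle cells, called marker-low monocytes, Krt8 stood at 38.9 and 40.1 CPM and Col3a1 at 43.6 and 55.4 CPM. Their median depths were 7384.5 and 7807 UMIs. Krt8 and Col3a1 are on the lists behind the limit of 20, so their contrast between these cells follows by construction. This limit was chosen after seeing the data, and values are marked as those of all monocytes or of the marker-low ones.

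Several markers of other blood cells were absent or rare, but some marker lists were found in many monocytes. The rule itself left out cells with a UMI of Cd3d, Cd3e, Cd3g or Flt3. Cells with S100a8 and S100a9 at 2% of UMIs or more were left out as well. Low T cell, dendritic and neutrophil markers follow in part from the rule and are a description. Siglech of plasmacytoid dendritic cells, Xcr1 of cross-presenting dendritic cells, Cd79a and Ms4a1 of B cells and Cpa3 of mast cells had 0 UMIs in both libraries, which allows a share of cells with a UMI of up to 0.773% in beta-elemene and 0.888% in vehicle. The T cell receptor gene Trac had 2 UMIs in each library. The list of 10 T cell markers summed to 142 CPM in beta-elemene and 119 CPM in vehicle, with 509 and 393 UMIs of it from Il7r, the interleukin-7 receptor gene. The 11 neutrophil markers summed to 331 CPM in beta-elemene and 275 CPM in vehicle, and Camp, Ltf and Ngp of immature neutrophils had at most 6 UMIs each. The 10 conventional dendritic markers summed to 65.0 and 64.2 CPM in beta-elemene and vehicle, and the 8 plasmacytoid dendritic markers to 267 and 337 CPM, mostly from Tcf4 and Runx2. At least 3 UMIs of the neutrophil list were found in 32.2% of beta-elemene and 34.9% of vehicle monocytes. For the plasmacytoid list the shares were 35.8% and 41.7%, for the T cell list 18.0% and 15.1%. They were 6.96% and 8.58% for the conventional dendritic list and 4.38% and 3.25% for the B cell list. Dendritic cells with a Flt3 UMI held the plasmacytoid list at 504 and 535 CPM in beta-elemene and vehicle. Macrophages held it at 310 and 327 CPM, T cells at 275 and 348 CPM and neutrophils at 114 and 121 CPM. The list was thus not confined to dendritic cells. The part of these transcripts in the results below was not tested.

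The monocytes spanned a wide range of MHC class II. Summed UMIs of H2-Aa, H2-Ab1 and H2-Eb1, which encode the class II chains that display peptides to CD4 T cells, ran from under 1 to over 160 per 10000 UMIs of a cell. Cells with 10 or more formed a high range of 256 beta-elemene (66.0%, 61.0 to 70.7) and 232 vehicle monocytes (68.6%, 63.4 to 73.6). The difference was -2.66 points (-9.42 to 4.19). The ranges are cut from a continuous measure, and 13.1% of beta-elemene and 14.5% of vehicle monocytes lay between 5 and 20 per 10000. The high range had a median of 79.5 per 10000 in beta-elemene and 70.1 in vehicle, and the low range 1.45 and 1.39. At 160 or more per 10000 lay 10.1% of beta-elemene and 6.51% of vehicle monocytes.

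**Figure D2:**
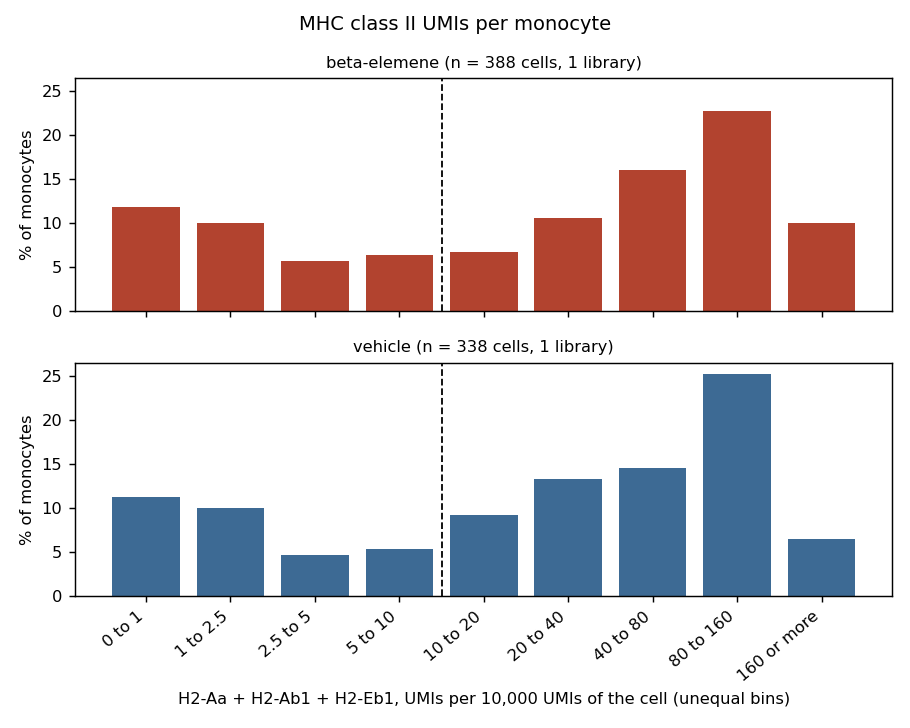
Share of monocytes (y axis, %) by MHC class II UMIs per 10000 UMIs of the cell (x axis, unequal bins), beta-elemene above vehicle. The dashed line marks 10 per 10000, and 66.0% of beta-elemene and 68.6% of vehicle monocytes lie to its right.

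Genes are given here that differed between the ranges in both libraries, which is how they were chosen. Within marker-low monocytes 28 of 4599 genes were at least 2-fold higher in the high range of both libraries and 15 of 2541 were at least 2-fold lower. The 3 genes that set the ranges are among them by construction. Other lists went opposite ways: high over low, the summed inflammatory cytokine list stood at 1.22 in beta-elemene (1.19 to 1.26) and 0.880 in vehicle (0.853 to 0.909), the interferon gamma list at 1.16 and 0.919, and the cell cycle list at 0.572 and 1.39. The difference between the libraries was not tested. Higher in the high range were further parts of the class II pathway. Ciita, the master transcription factor of class II genes, stood at 65.7 CPM in the high and 4.67 CPM in the low range of beta-elemene, and at 46.3 and 2.67 CPM in the high and low ranges of vehicle. Cd74, the invariant chain, was 12.6-fold higher in the high range in beta-elemene (11.6 to 13.8) and 9.17-fold higher in vehicle (8.38 to 10.1). The chemokine Cxcl16 was 2.92-fold higher in beta-elemene and 2.58-fold higher in vehicle, and Tmem176a and Tmem176b were between 2.30-fold and 2.84-fold higher.

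Chil3 was among the 15 genes lower in the high range of both libraries. It stood at 25.5 CPM in the high and 97.0 CPM in the low range of beta-elemene, and at 24.5 and 89.5 CPM in the high and low ranges of vehicle. Prtn3, a granule protease made by marrow precursors, had a high-over-low ratio of 0.414 in beta-elemene and 0.319 in vehicle. Thbs1, which encodes the matrix protein thrombospondin 1, had ratios of 0.340 and 0.339. Cxcl3, a ligand of the neutrophil receptor CXCR2, had ratios of 0.160 and 0.0965. Ccr2 itself, a gene of the rule, stood at 617 and 456 CPM in the high and low ranges of beta-elemene. The classical gene Ms4a4c had ratios of 1.23 in beta-elemene and 0.960 in vehicle.

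**Figure D3:**
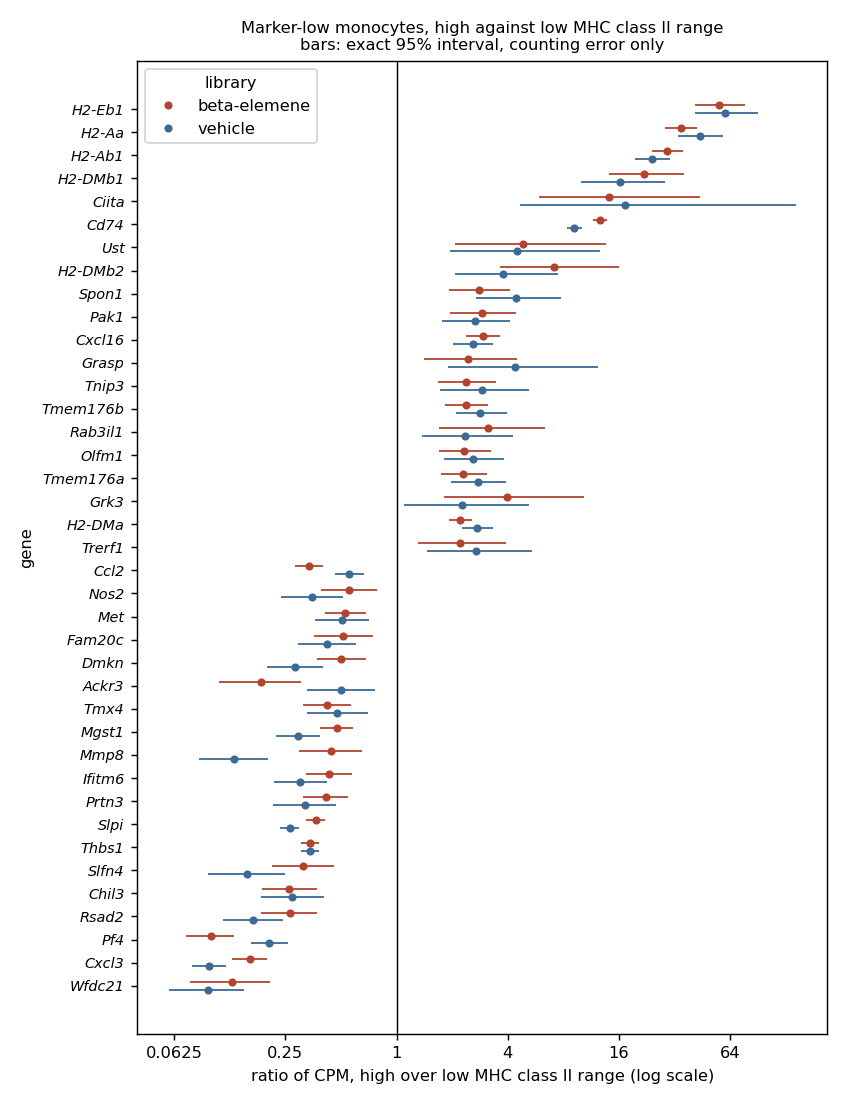
Ratio of CPM, high over low MHC class II range (x axis, log scale), of 39 genes in marker-low monocytes, beta-elemene and vehicle, with exact 95% intervals for counting error only. H2-Eb1, H2-Aa and H2-Ab1 set the ranges. The genes were chosen for a ratio on the same side of 1 in both libraries, and the ratios run up to 55.6 in beta-elemene and 59.8 in vehicle for H2-Eb1.

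Between the libraries, 158 of 7096 genes with at least 100 UMIs were at least 1.5-fold higher in beta-elemene monocytes with an interval that excluded 1 (2.23%), and 382 were at least 1.5-fold lower (5.38%). Among marker-low monocytes the counts were 122 higher (2.06%) and 121 lower (2.04%) of 5920 genes. Of these, 57 and 75 were also among the 158 and 382. The median log2 ratio over all genes was -0.02 in all monocytes and 0.02 in the marker-low ones. Of the 15 highest ratios of all monocytes 14 are given here, those of Htra3, Lpl, Crip2, Bckdhb, Arl5c, Cd69, Ly6c1, P2ry10b, Eif4e3, Nt5c3, Fam49a, Ankrd37, Orai2 and As3mt. The 15 lowest were those of Fabp4, Serpinb2, Acta2, Mgl2, Hist1h3c, Saa3, Has2, Tnc, Samd12, Ltbp2, Ccbe1, Magi1, Col7a1, Cd36 and Nhs.

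Single cells set several of these ratios. Fabp4, a fatty acid binding protein, had 30 UMIs in beta-elemene monocytes and 460 in vehicle monocytes, and 425 of the 460 lay in 1 cell. Saa3, an acute-phase protein, had 697 UMIs in beta-elemene and 2237 in vehicle, 1735 of them in 1 cell. The smooth muscle actin gene Acta2 had 170 of its 360 vehicle UMIs in 1 cell, and the lipase gene Lpl had 95 of its 135 beta-elemene UMIs in 1 cell. In marker-low monocytes the ratio was 0.838 for Fabp4 (0.468 to 1.502), 0.764 for Saa3 (0.666 to 0.877) and 1.21 for Htra3 (0.815 to 1.81). Arl5c, Cd69, P2ry10b, Ankrd37 and Mgl2 were named in both sets.

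A pair of C-type lectin genes was lower in marker-low monocytes of beta-elemene. Mrc1 (chr2:14229392-14332057, plus strand, mm10) encodes the mannose receptor CD206 of maturing macrophages. It stood at 244 CPM in beta-elemene and 506 CPM in vehicle, a ratio of 0.482 (0.440 to 0.527). It was found in 39.9% of beta-elemene and 54.3% of vehicle cells, and no cell held more than 47 of its 777 and 1352 UMIs. Thinned to 2000 UMIs, 24.7% of all beta-elemene and 31.9% of all vehicle monocytes had a Mrc1 UMI, against 1.75% and 2.76% of T cells. In marker-low monocytes its ratio was 0.434 in the low and 0.515 in the high MHC class II range, and it was 0.794 in macrophages (0.780 to 0.807). Mgl2 (chr11:70130329-70137550, plus strand) encodes the lectin CD301b of some macrophages and dendritic cells. It stood at 17.9 CPM in beta-elemene and 83.1 CPM in vehicle, a ratio of 0.215 (0.158 to 0.289). It was found in 4.64% of beta-elemene and 11.6% of vehicle marker-low cells, a minority of the monocytes. Thinned, 1.03% of all beta-elemene and 4.48% of all vehicle monocytes had a Mgl2 UMI, against 0.292% and 0.163% of T cells.

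Other genes were also lower in beta-elemene. Csnk2a2, a catalytic subunit of casein kinase 2, stood at 34.2 CPM in beta-elemene and 65.5 CPM in vehicle (ratio 0.522, 0.407 to 0.667). Its ratio was 0.574 in macrophages, 0.516 in neutrophils and 0.495 in T cells. The potassium channel gene Kcnk13 had a ratio of 0.514, Brd1, a scaffold of histone acetylation complexes, 0.474, the endothelin receptor gene Ednrb 0.506 and the matrix protein gene Edil3 0.528. Brd1 had ratios of 0.632 in macrophages, 0.447 in neutrophils and 0.571 in T cells. In macrophages Kcnk13 had 0.868, Ednrb 0.815 and Edil3 0.833. In T cells they had 0.056 (0.0013 to 0.360), 0.278 (0.179 to 0.419) and 0.355 (0.209 to 0.585), from low levels. T cells of beta-elemene and vehicle held Kcnk13 at 0.121 and 2.15 CPM, Ednrb at 3.74 and 13.5 CPM and Edil3 at 2.77 and 7.81 CPM. None of these genes, nor Csnk2a2, was thus lower in monocytes alone. Ccl7, a ligand of CCR2, stood at 46.1 CPM in beta-elemene and 89.5 CPM in vehicle (ratio 0.516). Thinned, 5.15% of all beta-elemene and 9.55% of all vehicle monocytes had a Ccl7 UMI, fewer than the 16.2% and 15.8% of T cells. The T cell group also carried fibroblast markers, and whether the Ccl7 UMIs of monocytes are background was not tested. The remaining named lower genes were Fam20a, Fchsd2, Cbr2, Frmd4b, Nkapd1, Ids and Anxa11os, with ratios between 0.374 and 0.536. Anxa11os is an antisense gene with 41 of its 74 vehicle UMIs in 1 cell.

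The 15 highest ratios of marker-low monocytes belonged to genes of several kinds. Arl5c, a small GTPase of the ARF-like family, stood at 37.7 CPM in beta-elemene and 15.7 CPM in vehicle (ratio 2.39, 1.67 to 3.49). Thinned, it was seen in 6.70% of all beta-elemene and 4.18% of all vehicle monocytes, against 2.49% and 2.93% of T cells. Id1, an inhibitor of helix-loop-helix transcription factors, stood at 56.8 CPM in beta-elemene and 25.5 CPM in vehicle (ratio 2.23, 1.68 to 2.99). Neutrophils held more Id1, at 274 CPM in beta-elemene and 234 CPM in vehicle. Its ratio was 1.34 in macrophages, 1.17 in neutrophils and 0.772 in T cells. The part of neutrophil RNA in the monocyte ratio was not tested. Cd69, an early activation antigen, stood at 31.4 and 15.7 CPM in beta-elemene and vehicle (ratio 1.996, 1.38 to 2.93). Thinned, 5.41% of all beta-elemene and 2.69% of all vehicle monocytes had a Cd69 UMI, against 14.6% and 15.4% of T cells, which are known to express it. The macrophage ratio was 1.80. Cdk9, the kinase of the elongation factor P-TEFb, had a ratio of 1.84, and no cell held more than 3 of its UMIs. Ankrd37, a target of the hypoxia-inducible factor, had a ratio of 2.07 and the glutathione transferase gene Gstp1 one of 2.08. Ube2c, P2ry10b, Ftl1-ps1, Magi3, Plaat3, Itpk1 and Mrpl45 had ratios between 1.79 and 2.47, and the interferon genes Rtp4 and Oas3 1.88 and 1.83. Ftl1-ps1 is a ferritin pseudogene that can share reads with its parent, and 41 of the 124 beta-elemene UMIs of Ube2c lay in 1 cell.

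**Figure D4:**
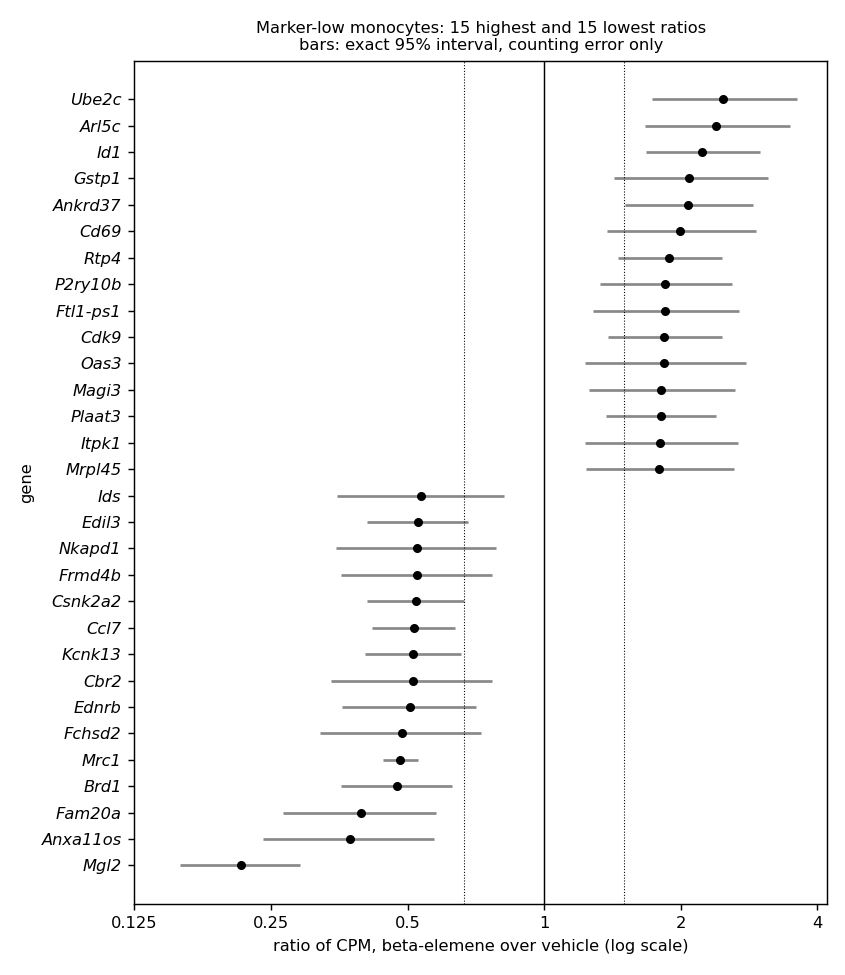
Ratio of CPM, beta-elemene over vehicle (x axis, log scale), of the 15 highest and 15 lowest genes in marker-low monocytes, with exact 95% intervals for counting error only. Dotted lines mark 1.5-fold, and Mgl2 at 0.215 and Mrc1 at 0.482 are among the lower genes.

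Type I interferon genes encode antiviral effectors and their sensors. Of 26 measured genes 6 were called higher and 0 lower in all monocytes, and the same counts held in marker-low monocytes. There 24 of 26 ratios lay above 1, against 3131 of 5920 over all genes. Over all genes 2.23% were called higher and 5.38% lower in all monocytes, and 2.06% and 2.04% in marker-low monocytes. The median log2 ratio of the list was 0.23 in all and 0.26 in marker-low monocytes, against -0.02 and 0.02 over all genes. Isg15, a ubiquitin-like modifier, stood at 210 CPM in beta-elemene and 89.9 CPM in vehicle marker-low monocytes (ratio 2.34, 2.01 to 2.72). It was found in 42.6% of beta-elemene and 31.5% of vehicle cells. Thinned, the shares were 23.2% and 13.7% of all monocytes, against 11.8% and 10.7% of T cells. Rtp4, a chaperone induced by interferon, stood at 59.95 and 31.8 CPM in beta-elemene and vehicle, and Zbp1, a sensor of Z-form nucleic acids, at 122 and 78.3 CPM. The oligoadenylate synthetase Oas3 stood at 25.4 and 13.9 CPM, and Stat2, a subunit of the interferon-activated factor ISGF3, at 36.4 and 21.3 CPM. Isg20, a nuclease, was the sixth gene called in marker-low cells, with a ratio of 1.65, and Ifi205 was the sixth in all monocytes, with a ratio of 1.69. Rsad2 and Oasl1 lay below 1, at 0.908 and 0.808.

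The promoters of the called genes are shown for the interferon-stimulated response element, bound by ISGF3 and interferon regulatory factors. GAAA, any 2 bases and GAAA again were searched on both strands, overlaps allowed, from 250 bases before to 50 after the start site in RefSeq promoters of build GRCm38.p6. They occurred in promoters of 17 of 28 matched type I genes (60.7%), 12 of 20 interferon gamma genes (60%), 5 of 19 MHC class I genes (26.3%) and 2 of 13 classical monocyte genes (15.4%), against 3.44% of all 32851 promoters. A gene with several promoters counted once if any matched. The second motif searched, TTC, any 3 bases and GAA, occurred for 14.3%, 40%, 10.5% and 30.8% of these lists in the same order, against 8.3% of all promoters. A match is a description of the letters only. Among the 6 called marker-low genes 4 had a promoter sequence, and Isg15, Oas3 and Stat2 held a match. In the lines below, written 5′ to 3′ on the strand of each gene, capitals mark the matches.
Isg15, chr4:156200769-156201068, minus strand: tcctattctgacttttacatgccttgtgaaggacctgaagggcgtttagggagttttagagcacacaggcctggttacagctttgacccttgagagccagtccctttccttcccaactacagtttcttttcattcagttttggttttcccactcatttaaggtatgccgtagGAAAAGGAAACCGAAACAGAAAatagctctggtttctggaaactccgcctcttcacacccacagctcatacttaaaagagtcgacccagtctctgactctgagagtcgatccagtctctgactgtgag
Oas3, chr5:120777610-120777909, minus strand: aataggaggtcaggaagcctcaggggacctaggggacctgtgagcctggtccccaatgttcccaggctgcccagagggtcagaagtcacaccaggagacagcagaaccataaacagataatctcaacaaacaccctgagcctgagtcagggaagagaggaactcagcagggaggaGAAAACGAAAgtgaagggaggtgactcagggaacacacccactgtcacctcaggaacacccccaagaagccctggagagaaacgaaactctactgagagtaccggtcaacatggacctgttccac
Stat2, chr10:128270248-128270547, plus strand: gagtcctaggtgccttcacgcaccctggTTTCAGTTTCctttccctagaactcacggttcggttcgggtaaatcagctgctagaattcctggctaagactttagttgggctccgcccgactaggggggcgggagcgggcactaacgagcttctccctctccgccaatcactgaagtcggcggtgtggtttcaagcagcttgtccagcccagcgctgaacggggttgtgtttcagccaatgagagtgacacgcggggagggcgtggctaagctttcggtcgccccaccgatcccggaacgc
In Isg15 3 overlapping matches began between 78 and 66 bases before the start site, in Oas3 1 match began 75 bases before it and in Stat2 1 match began 222 bases before it, on the other strand.

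The ratio of the summed interferon list differed between the MHC class II ranges. Summed over the type I list, marker-low monocytes of the high range had 1.44 times the vehicle level in beta-elemene (1.37 to 1.51), and those of the low range 1.00 times (0.942 to 1.07). These intervals do not overlap, but they cover counting error only and the difference between the ranges was not tested. Rtp4 stood at 55.8 CPM in beta-elemene and 20.8 CPM in vehicle in the high range, and at 68.1 and 60.1 CPM in the low range. Isg15 had ratios of 2.59 in the high range (2.10 to 3.20) and 1.90 in the low range (1.53 to 2.37). In vehicle the list was lower in the high than in the low range, at 0.600 times (0.564 to 0.639), while in beta-elemene it stood at 0.859 times (0.817 to 0.904). Summed neutrophil markers in marker-low cells moved the same way, with a ratio of 1.47 in the high range (1.315 to 1.64) and 0.861 in the low range (0.743 to 0.998). Their sum was 389 CPM in beta-elemene and 316 CPM in vehicle, against 16367 and 14913 CPM in neutrophils, which made up 9.42% and 5.65% of kept cells and carried the interferon list at 3549 and 2582 CPM. The T cell markers, mostly Il7r, also had a ratio of 1.31 in the high range (1.12 to 1.54) and 0.824 in the low range (0.635 to 1.07). Their part in the result was not tested. The per-cell median of the list was 14.9 UMIs per 10000 in beta-elemene and 10.2 in vehicle over all monocytes. The top 5% of cells held 22.3% of its UMIs in beta-elemene and 27.0% in vehicle. Over macrophages these genes had a median log2 ratio of 0.10, and Isg15 had a ratio of 1.56.

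**Figure D5:**
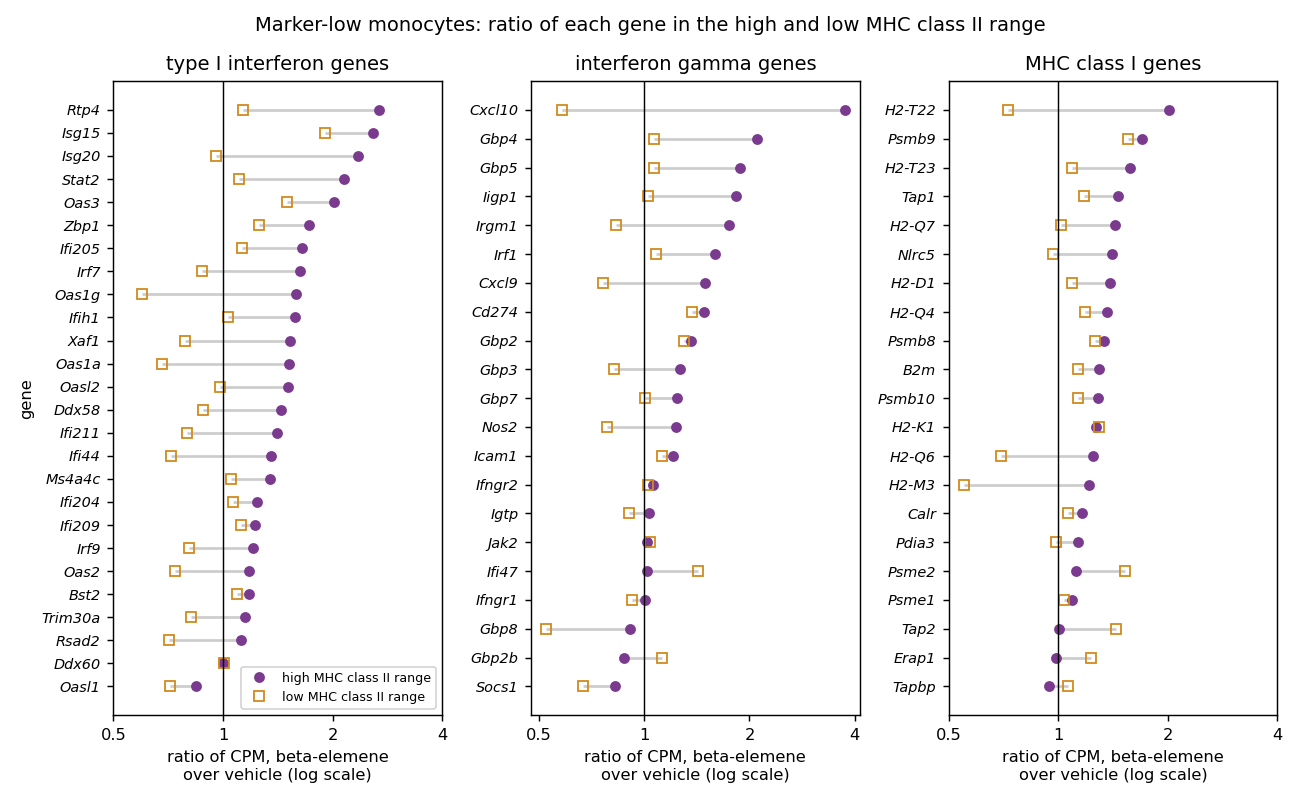
Ratio of CPM, beta-elemene over vehicle (x axis, log scale), of interferon and MHC class I genes in marker-low monocytes of the high (filled circles) and low (open squares) MHC class II range. Most type I genes lie further right in the high range, and Rtp4 has ratios of 2.68 and 1.13 in the high and low ranges.

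Genes of the interferon gamma response, which includes guanylate-binding proteins and the ligands of CXCR3, depended on the cells counted. In marker-low monocytes 3 of 22 were called higher and 0 lower, with a median log2 ratio of 0.23, and in all monocytes 1 higher and 0 lower with a median of 0.03. The shares called higher over all genes were 2.06% in marker-low and 2.23% in all monocytes, and 1 of 22 is near the second. Gbp4 had a ratio of 1.73, Gbp5 of 1.54 and Iigp1 of 1.61 in marker-low cells. Gbp4 and Iigp1 had ratios of 1.27 and 0.848 in all monocytes. Cd274, which encodes PD-L1, stood at 195 CPM in beta-elemene and 134 CPM in vehicle (ratio 1.45, 1.27 to 1.66), which stayed under 1.5-fold and was not called.

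Few genes of MHC class I antigen processing passed the call, though most ratios lay above 1. In marker-low monocytes 19 of 21 ratios lay above 1, against 3131 of 5920 over all genes, with 2 called higher and 0 lower and a median log2 ratio of 0.31. In all monocytes 20 of 21 lay above 1, against 3371 of 7096 over all genes, with 1 called higher, and the median was 0.21. Over all genes 2.06% of marker-low and 2.23% of all-monocyte ratios were called higher. Psmb9, a catalytic subunit of the immunoproteasome, stood at 209 CPM in beta-elemene and 127 CPM in vehicle (ratio 1.65, 1.44 to 1.89). B2m, the light chain of class I, stood at 1852 and 1499 CPM, H2-D1 at 1902 and 1480 CPM and the peptide transporter gene Tap1 at 65.9 and 48.3 CPM in beta-elemene and vehicle. The other gene called was H2-T22, a nonclassical class I gene, at 42.1 and 27.3 CPM. H2-Q and H2-T genes are close copies of each other, so single members are uncertain. In macrophages the same genes had a median log2 ratio of 0.29.

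No MHC class II gene was called in monocytes. Of 11 measured genes 0 were called in either direction in both sets, with a median log2 ratio of 0.07 in all and 0.03 in marker-low monocytes. H2-Aa stood at 1889 CPM in beta-elemene and 1873 CPM in vehicle over all monocytes, while macrophages had 2066 and 1514 CPM, a ratio of 1.36 (1.35 to 1.38). Cd74 had a ratio of 1.05 in monocytes and 1.38 in macrophages. The difference between these cells was not tested.

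No classical monocyte gene outside the rule was called. Of 18 genes, with Ms4a4c also on the type I interferon list, 0 were called either way in both sets. The median log2 ratio was 0.28 in all and 0.11 in marker-low monocytes. In all monocytes 13 of 18 ratios lay above 1, against 3371 of 7096 over all genes. In marker-low cells Lyz2, the lysozyme of myeloid cells, stood at 5926 CPM in beta-elemene and 5042 CPM in vehicle, and Ifitm3, a membrane antiviral factor, at 2238 and 1707 CPM. F13a1, coagulation factor XIII A chain, stood at 257 and 347 CPM in beta-elemene and vehicle (ratio 0.740, 0.672 to 0.813). Genes of macrophage maturation had 0 called higher and 1 lower, Mrc1, of 19 in both sets. The shares called lower over all genes were 5.38% in all and 2.04% in marker-low monocytes, and 1 of 19 is near the first. Adgre1 had a ratio of 0.736 and the transcription factor Maf one of 0.687 in marker-low cells, while Apoe and Trem2 stood at 1.04 and 0.993. Of 7 measured genes of monocyte-derived dendritic cells, Mgl2 was the 1 called lower.

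Chemokine ligands recruit other leukocytes. Of 19 measured, 1 was called higher and 3 lower in both sets, with a median log2 ratio of -0.14 in all and -0.21 in marker-low monocytes. Over all genes 5.38% were called lower in all and 2.04% in marker-low monocytes. The 3 lower were Ccl7, Ccl8 and Ccl17, and the higher was Ccl5. Of these Ccl17 had 145 of its 156 vehicle UMIs in 1 cell, and Ccl5 had 44 of its 53 in 1 cell. Ccl8 had 61 of its 248 vehicle UMIs in 1 cell. No cell held more than 35 of the 239 vehicle UMIs of Ccl7 in marker-low cells. The share of monocytes with Ccl7 lay below that of T cells, and whether it is background was not tested. The abundant neutrophil attractant Cxcl2 stood at 3045 CPM in beta-elemene and 3495 CPM in vehicle (ratio 0.871, 0.847 to 0.897), Ccl6 at 910 and 1169 CPM and Ccl9 at 637 and 780 CPM.

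Of 21 inflammatory cytokine genes 0 were called higher and 1 lower, Il12b, in all monocytes, and 1 higher and 1 lower in marker-low ones. The shares over all genes were 2.23% called higher and 5.38% lower in all monocytes, and 2.06% and 2.04% in marker-low ones. Il1b, the precursor of interleukin-1 beta, stood at 3352 CPM in beta-elemene and 2830 CPM in vehicle marker-low monocytes (ratio 1.18, 1.15 to 1.22), and its ratio was 1.35 in the high and 0.882 in the low MHC class II range. The neutrophil markers of the same cells had ratios of 1.47 and 0.861, neutrophils carried the inflammatory list at 14302 and 12748 CPM in beta-elemene and vehicle, and their part was not tested. Il18 was called higher in marker-low cells with a ratio of 1.57, against 1.41 in all monocytes, and Ptgs2, which makes prostaglandins, stood at 402 and 538 CPM in beta-elemene and vehicle. Il12b came from 1 cell in each library. The NADPH oxidase genes, which make the oxidative burst, had 0 of 7 called. Ratios above 1 were 7 of 7 in all and 6 of 7 in marker-low monocytes. Among all genes they were 3371 of 7096 and 3131 of 5920. Cyba, the p22phox subunit of the oxidase, stood at 1428 and 1078 CPM in beta-elemene and vehicle (ratio 1.32, 1.26 to 1.39). Genes tied to immune suppression had 0 of 19 called in both sets. Arg1, which breaks down arginine, stood at 940 and 1116 CPM, and its ratio was 0.660 in the high and 1.02 in the low range.

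Most ratios of glycolysis and hypoxia genes lay above 1. The shares over all genes were 2.23% called higher and 5.38% lower in all monocytes, and 2.06% and 2.04% in marker-low ones. Ratios above 1 over all genes were 3371 of 7096 and 3131 of 5920 in these sets. In all monocytes 17 of 21 ratios lay above 1, and 1 gene was called higher and 0 lower. In marker-low monocytes 18 of 21 ratios lay above 1 with a median log2 ratio of 0.18, and 1 was called higher and 1 lower. Gapdh stood at 2077 CPM in beta-elemene and 1748 CPM in vehicle, and Pkm, pyruvate kinase, at 837 and 703 CPM. Hk2, hexokinase 2, which starts glycolysis, went the other way, at 179 and 273 CPM in beta-elemene and vehicle (ratio 0.653, 0.584 to 0.730). It was not called in all monocytes, where its ratio was 0.687. Ankrd37 was the 1 called higher in both sets. Oxidative phosphorylation genes had 0 of 24 called higher and 1 lower, Atp5k, whose ratio of 0.659 was matched by 0.647 in macrophages and 0.569 in neutrophils.

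Cell cycle UMIs were concentrated in few cells, and the list changed direction with the cells counted. At least 3 of these UMIs were found in 58.0% of all beta-elemene and 59.8% of all vehicle monocytes. In all monocytes 0 of 18 were called higher and 5 lower, Mki67, Top2a, Cdk1, Tpx2 and Pclaf, and the median log2 ratio was -0.08. The share called lower over all genes was 5.38% there. In marker-low monocytes 2 of 9 measured were called higher, Birc5 and Ube2c, and 0 lower, with a median of 0.30. The share called higher over all genes was 2.06% in these cells. Their summed list had a ratio of 2.16 in the low MHC class II range (1.92 to 2.44) and 0.893 in the high range (0.826 to 0.967). The difference between the ranges was not tested. Over all monocytes the top 5% of cells held 59.9% of the list's UMIs in beta-elemene and 65.3% in vehicle.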

How the data were processed

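Tumours were dissociated enzymatically, red cells were lysed and libraries were made with droplet 3′ version 3 chemistry, per the labels' protocols. The authors deposited raw UMI counts per gene and barcode. Cell Ranger 7.1.0 wrote the matrices, per the file headers, and the submitters' processing notes name Cell Ranger, STAR and mm10. The cell-calling rule and intron counting are not given in the sources used here.

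Barcodes with at least 200 genes and at most 20% mitochondrial UMIs were kept, doublets included. Doublets were called by Scrublet in scanpy 1.11.5 (291 beta-elemene and 335 vehicle cells) and left out as an alternative. Monocyte UMIs were added up within each library and given as CPM. A ratio is beta-elemene over vehicle with an exact conditional Poisson interval, and shares have exact Clopper-Pearson intervals. Differences of shares have approximate Newcombe intervals made from Wilson limits. A gene was measured with at least 100 UMIs in both sums together, and called at 1.5-fold or more with an interval excluding 1. No p-value was made, because each group is 1 library. The calculation was tested on simulated Poisson counts. These left out the uneven spread of UMIs over cells, so they cannot show how the intervals fare under it. The members, the 22 gene lists and the 13 marker lists were chosen with earlier results of these data known. Named genes had an interval excluding 1, a UMI in at least 5% of monocytes of the higher library and there at least 20% of the CPM of the highest other cell group, and were the 15 highest and 15 lowest ratios. Genes of the rule, mitochondrial, ribosomal protein, haemoglobin and receptor-segment genes and unnamed models were not eligible. Contrasts of monocytes with macrophages and of the ranges used 12 and 10 genes each way by rule. The marker-low monocytes, their named genes by the same rule, and 20 genes each way for their ranges were chosen after seeing the data. Genes beside lists were the most abundant and most extreme members. GENCODE vM21 held 99.8% of the gene IDs. Alternatives were other filters, rule limits, scalings, UMI minimums, a mean over cells, thinning to 2000 UMIs and each MHC class II range alone. The median-of-ratios scaling factor was 0.987. Values of 3 genes are not reported here.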

Additional observations from a re-analysis of the deposited data

Results flagged for a closer look

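Among the 30 genes named in all monocytes, 3 had ratios on opposite sides of 1 in monocytes and macrophages of the same libraries, with both intervals excluding 1, and the difference was not tested. Fabp4 had a ratio of beta-elemene over vehicle of 0.0601 in monocytes and 3.10 in macrophages (2.84 to 3.38), and 425 of its 460 vehicle monocyte UMIs lay in 1 cell. In marker-low monocytes its ratio was 0.838 (0.468 to 1.502), so its direction was not set there. Saa3 had a ratio of 0.287 in monocytes and 1.38 in macrophages (1.31 to 1.45), with 1735 of 2237 vehicle monocyte UMIs in 1 cell. Mgl2 had a ratio of 0.230 in monocytes and 1.11 in macrophages (1.06 to 1.17), with no more than 35 of 236 vehicle monocyte UMIs in any cell. Among the 30 genes named in marker-low monocytes, Mgl2 and Magi3 did so, Magi3 with 1.81 in monocytes (1.26 to 2.63) and 0.853 in macrophages (0.769 to 0.945).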

How the results depend on the processing

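No paired analysis was possible because each group is 1 library, and for the same reason no library could be left out. The share of monocytes kept its direction under all 9 alternatives, with ratios from 1.12 to 1.31, but the interval of the difference, which included 0 for all monocytes, excluded it in points without doublets (0.017 to 0.985), at 5 rule UMIs (0.153 to 1.07), in marker-low cells (0.027 to 0.956) and among Csf1r cells (0.198 to 2.81). The share in the high MHC class II range kept its direction under all 8, from 0.943 to 0.997. The 382 lower genes became 188 without called doublets and 121 in marker-low monocytes. With a minimum of 50 UMIs 275 genes were higher and 581 lower, and with 500 UMIs 25 and 54, as more or fewer genes were measured. In marker-low monocytes ratios crossed 1 for Crip2 (0.894), Bckdhb (0.986), Acta2 (1.82), Has2 (1.34), Samd12 (1.07) and Magi1 (1.04). Without the 1% of cells richest in the gene, Acta2 had 1.36. In the high range alone Htra3 had 0.893, Lpl 0.904, Crip2 0.818 and Tnc 1.02, and the stress list a median log2 ratio of -0.01 (-0.0071). In the low range alone the type I interferon median was -0.10. The causes of these changes were not tested. Free RNA, the unknown number of mice and 1 library per group limit every ratio.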

Other observations

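Cholesterol and stress genes were not part of the comparisons above. For the counts below, the shares over all genes were 2.23% called higher and 5.38% lower in all monocytes. In marker-low monocytes they were 2.06% and 2.04%. In marker-low monocytes Abcg1, a cholesterol exporter, stood at 54.9 CPM in beta-elemene and 33.3 CPM in vehicle (ratio 1.65, 1.27 to 2.15), and macrophages stood at 30.15 and 30.14 CPM. Thinned, 11.1% of all beta-elemene and 8.36% of all vehicle monocytes had an Abcg1 UMI, against 2.63% and 2.60% of T cells. It was the 1 gene called of 13 measured on the cholesterol and lipid list, while in all monocytes Abcg1 and Lpl were called higher and Fabp4 and Cd36 lower, of 18. The heat shock gene Hspa1a stood at 170 CPM in beta-elemene and 109 CPM in vehicle (ratio 1.56, 1.35 to 1.81), with 2.04 in the low and 1.11 in the high MHC class II range, and Hsph1 had a ratio of 0.640. These were the 2 called of 22 in marker-low cells, and in all monocytes Hspa1a and Dnajb1 were called, both higher. Timp2, an inhibitor of matrix proteases, was the 1 gene called of 16 on the matrix list, at 38.9 and 63.7 CPM in beta-elemene and vehicle (ratio 0.611). In all monocytes Timp2 was not called, and the 1 called of 17 was Mmp9, a matrix protease, at 17.3 and 42.5 CPM (ratio 0.407, 0.301 to 0.545).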
